A study of Mus musculus with 2 samples.

Results

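Fc gamma receptors, the adaptors that carry their signal and 3 related myeloid receptors were followed through the cell types of a mouse brain tumour. The 9 genes, chosen by family membership, were Fcgr1, Fcgr2b, Fcgr3, Fcgr4, Fcer1g, Tyrobp, Trem1, Clec4e and Cd84, out of 31053 genes counted. All 9 had counts in these libraries and all 9 entered the tests across 6420 genes. The data were 2 droplet single-cell RNA libraries, replicates 1 and 2 of 1 group: brain tumour of C57BL/6 mice, labelled mIDH1 (mutant isocitrate dehydrogenase 1) and taken at the symptomatic stage. Both libraries carry the mutant enzyme and no control group entered, so comparisons were made between cell types and not between genotypes. The labels do not say whether the libraries come from separate animals, so p-values measure only how far the differences between cell types vary over 2 libraries, a spread that may be technical. The study concerns G-CSF made by mutant IDH1 glioma cells and its effect on myeloid cells, and neutrophils, monocytes and macrophages were therefore examined first.

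An Fc gamma receptor binds the constant part of IgG. Fcgr1 (CD64, high affinity), Fcgr3 (CD16) and Fcgr4 are activating: they need Fcer1g, the FcR gamma chain, whose ITAM motif is phosphorylated by Src-family kinases and then recruits the kinase Syk. Fcgr2b (CD32B) carries an ITIM motif in its own tail and recruits the phosphatase Inpp5d (SHIP1), which restrains the activating receptors on the same cell. Tyrobp (DAP12) is the other ITAM adaptor of myeloid cells and serves receptors such as Trem1, Trem2 and Siglech, and in the brain it is known for its part in microglia.

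Of the 9 genes, 5 lie on chromosome 1. In GENCODE M21 (GRCm38), the Fc gamma receptor cluster holds Fcgr2b at chr1:170958617-170976547 on the minus strand, Fcgr4 at chr1:171018920-171029761 on the plus strand and Fcgr3 at chr1:171051174-171064935 on the minus strand. Fcer1g lies nearby at chr1:171229572-171234365 (minus), and Cd84 at chr1:171839697-171890718 (plus). The other genes are Fcgr1 at chr3:96282909-96293969 (minus), Clec4e at chr6:123281789-123289870 (minus), Tyrobp at chr7:30413760-30417585 (plus) and Trem1 at chr17:48232768-48246924 (plus). The sequences before the starts of the 4 Fc gamma receptors are shown because the receptors differed in their distribution over cell types. These differences did not simply divide activating from inhibitory receptors, since Fcgr1 and Fcgr2b were both at or near 0 in neutrophils. Whether the sequences bear on the differences was not tested. They are from RefSeq (GRCm38.p6), 5′ to 3′ on the strand of the gene, without bases inside annotated exons. Capitals mark GAGGAA or its reverse complement TTCCTC. This motif contains GGAA, the core bound by ETS-family factors such as PU.1, the factor of myeloid development. Fcgr1 is chr3:96293970-96294089 (minus), Fcgr3 is chr1:171059404-171059523 (minus), Fcgr4 is chr1:171018806-171018919 (plus) and Fcgr2b is chr1:170976128-170976190 (minus). The stretches of Fcgr3 and Fcgr2b lie inside the annotated gene, between exons of a longer transcript.
Fcgr1: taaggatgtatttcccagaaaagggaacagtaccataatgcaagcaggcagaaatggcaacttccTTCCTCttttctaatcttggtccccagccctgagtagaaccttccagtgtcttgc
Fcgr3: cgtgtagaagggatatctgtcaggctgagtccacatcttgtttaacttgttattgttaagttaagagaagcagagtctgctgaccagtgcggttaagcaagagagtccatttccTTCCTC
Fcgr4: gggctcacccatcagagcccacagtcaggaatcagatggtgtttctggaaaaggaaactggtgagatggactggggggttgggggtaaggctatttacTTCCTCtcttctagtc
Fcgr2b: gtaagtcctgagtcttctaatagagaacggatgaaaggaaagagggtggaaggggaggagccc
The motif stood once in each of the 3 activating receptor stretches, always as TTCCTC, at 55 bases from the start in Fcgr1, 6 in Fcgr3 and 22 in Fcgr4. The 63 bases of Fcgr2b hold no match to this longer motif, nor does its full 250-base window, but they do hold the shorter core GGAA. Over windows of 250 bases, 5 of the 8 members with a window held the motif on either strand (Fcgr1, Fcgr3, Fcgr4, Trem1 and Clec4e), against 23.3% of 32851 windows of that length. A match is a description of the letters, not a binding site. Tyrobp had no entry in the table.

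Barcodes under 200 genes or over 15% mitochondrial UMIs were dropped (unique molecular identifiers, 1 per counted RNA molecule), leaving 1740 and 1446 in replicates 1 and 2. The 8 classes were then drawn by marker counts, and the 2618 cells that passed exactly 1 gate were used. They were 346 Cx3cr1-high and 95 Cx3cr1-low cells positive for C1qa (macrophages and microglia), 64 monocytes, 31 neutrophils, 138 basophils, 76 dendritic cells, 52 T cells and 1816 tumour cells. The libraries held 63001350 and 58915133 UMIs in all, and the median UMIs per cell ran from 2074 in neutrophils and 3381 in Cx3cr1-low cells to 10242 in Cx3cr1-high and 44092 in tumour cells. Each class held some UMIs of every marker fixed for its name, but the gate genes Nras, Ly6c2, Mcpt8 and Ccr7 are among these markers. Some were traces, with Ngp at 1 UMI in neutrophils and Mrc1 at 4 UMIs in Cx3cr1-low cells. The summed microglia markers stood at 6139 and 6531 CPM (counts per 1e6 UMIs of a class) in Cx3cr1-high cells against 3038 and 3278 CPM in Cx3cr1-low cells. Of the Cx3cr1-low barcodes, 83.2% held no UMI of the nuclear RNA Malat1, against 13.0% of the Cx3cr1-high ones, and red-cell genes summed to 12065 CPM there in replicate 1 and 35.3 CPM in replicate 2. Macrophage markers in the monocyte class summed to 5059 and 1319 CPM. The neutrophil class held fewer than 20 cells in each library.

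Fcgr1 was a receptor of C1qa-positive cells and monocytes. It stood at 680 and 717 CPM in Cx3cr1-high cells of replicates 1 and 2, at 501 and 443 CPM in Cx3cr1-low cells and at 581 and 348 CPM in monocytes. Cx3cr1-high cells were above all others in both libraries, and the ranges of Cx3cr1-low cells and monocytes overlapped. Neutrophils and basophils held 0 Fcgr1 UMIs, dendritic cells 1 and T cells 3. The neutrophil result rests on 70582 UMIs in 31 cells, and the basophil one on 823936 UMIs in 138 cells.

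Fcgr3, the low-affinity activating receptor, reached every myeloid class. Neutrophils had 1792 and 1301 CPM, above the 1201 and 1268 CPM of Cx3cr1-high cells in both libraries. Cx3cr1-low cells had 1363 and 977 CPM and overlapped the Cx3cr1-high range. Monocytes had 716 and 451 CPM and basophils 368 and 277 CPM, and these ranges did not overlap. In the share of cells with an Fcgr3 UMI at equal depth, given below, monocytes and basophils were not apart.

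Fcgr4, the activating receptor for IgG2 subclasses, was at 637 and 653 CPM in Cx3cr1-high cells, at 522 and 358 CPM in Cx3cr1-low cells, at 182 and 266 CPM in neutrophils and at 225 and 96.8 CPM in monocytes. Neutrophils and monocytes overlapped. Basophils, dendritic cells and T cells held 0 Fcgr4 UMIs, so that basophils had Fcgr3 as their one detected activating Fc gamma receptor.

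Fcgr2b, the inhibitory receptor, was graded from class to class. It stood at 1094 and 1208 CPM in Cx3cr1-high cells, at 585 and 765 CPM in Cx3cr1-low cells, at 417 and 290 CPM in monocytes and at 65.4 and 65.6 CPM in basophils. None of these neighbours overlapped. Neutrophils held 0 and 1 UMIs, dendritic cells 1 and T cells 1 in both libraries together.

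**Figure D1:**
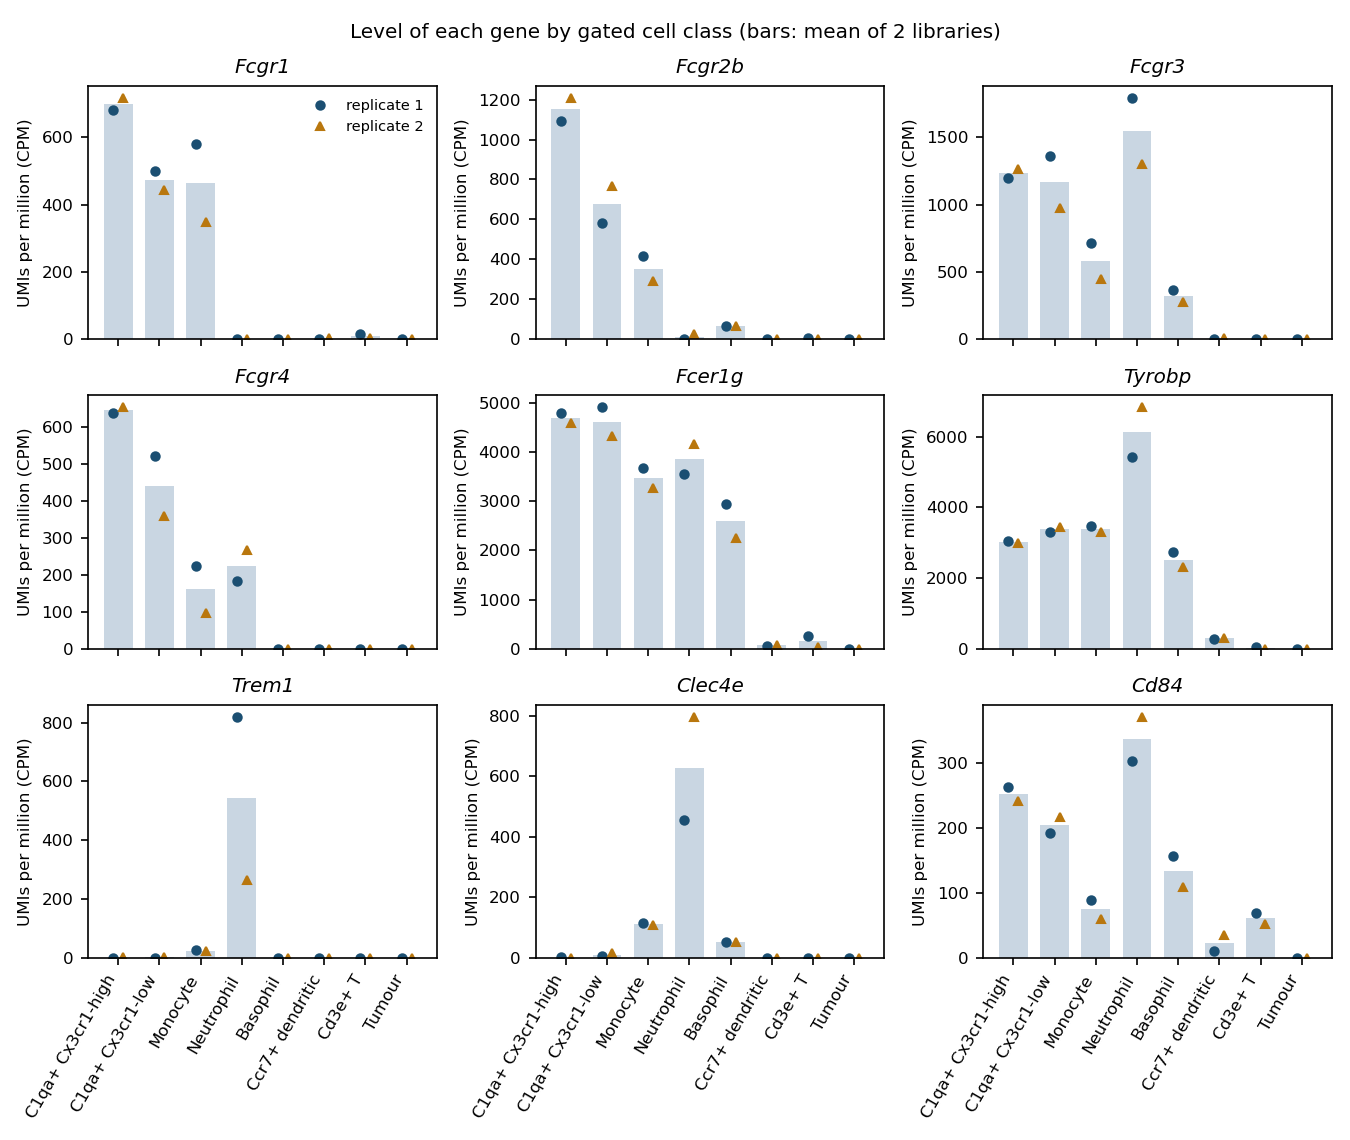
CPM of each of the 9 genes (vertical axes linear, each with its own range) by cell class; circles are replicate 1, triangles replicate 2 and bars the mean of the 2 libraries. The Fc gamma receptors were high in the C1qa-positive cells and monocytes and at or near 0 in dendritic, T and tumour cells, and Trem1 and Clec4e were highest in neutrophils.

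The balance of activating against inhibitory receptors was taken as the share of Fcgr2b among the UMIs of the 4 Fc gamma receptors, with exact 95% binomial intervals that cover counting error only. Genes can be captured with unequal efficiency, so the share is compared between classes and not read as a ratio of proteins. In Cx3cr1-high cells Fcgr2b took 30.3% (29.2 to 31.4) of 7162 UMIs in replicate 1 and 31.4% (30.4 to 32.5) of 7637 in replicate 2. The rest was divided in nearly the same way in both libraries, with Fcgr3 at 33.2% and 33.0%, Fcgr1 at 18.8% and 18.6%, and Fcgr4 at 17.6% and 16.97%. Monocytes had 21.5% (17.9 to 25.5) and 24.5% (20.5 to 28.8) Fcgr2b, below Cx3cr1-high cells in both libraries, and the largest Fcgr1 share among C1qa-positive cells, monocytes, neutrophils and basophils, at 29.96% and 29.4%. Basophils had 15.1% (10.2 to 21.2) and 19.1% (13.0 to 26.6), and all of the remainder was Fcgr3. Cx3cr1-low cells differed between libraries by more than counting error, with 19.7% (16.5 to 23.2) and 30.1% (26.1 to 34.3), and their mean of 24.9% ± 7.36 (SD, n = 2) cannot be placed against the other classes. Among its 16 cells with Malat1 the Fcgr2b share was 17.6% in replicate 1 and 41.9% in replicate 2, and among the 79 cells without Malat1 20.3% and 26.2%.

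Neutrophils stood apart, with 1 Fcgr2b UMI among 125 Fc gamma receptor UMIs (0.8%, 0.0203 to 4.38). With 15 and 16 cells, the class fell below the limit of 20 cells per library that was set for this share. Of the Fc gamma receptor UMIs of neutrophils, 90.8% and 81.7% were Fcgr3 and 9.23% and 16.7% Fcgr4. The upper limit of 4.38% lies below the lower limit of every other myeloid class in both libraries. When cells passing several gates were counted too, the neutrophil share was 19.3%. Macrophage markers summed to 790 and 292 CPM in the neutrophil class, with Mrc1, Ms4a7 and Adgre1 at 0. Expressed as activating UMIs per Fcgr2b UMI, the ratio was 2.30 and 2.18 in Cx3cr1-high cells, 4.08 and 2.32 in Cx3cr1-low cells, 3.65 and 3.09 in monocytes and 5.63 and 4.22 in basophils. Dendritic cells and T cells held 4 Fc gamma receptor UMIs each, too few for a share.

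**Figure D2:**
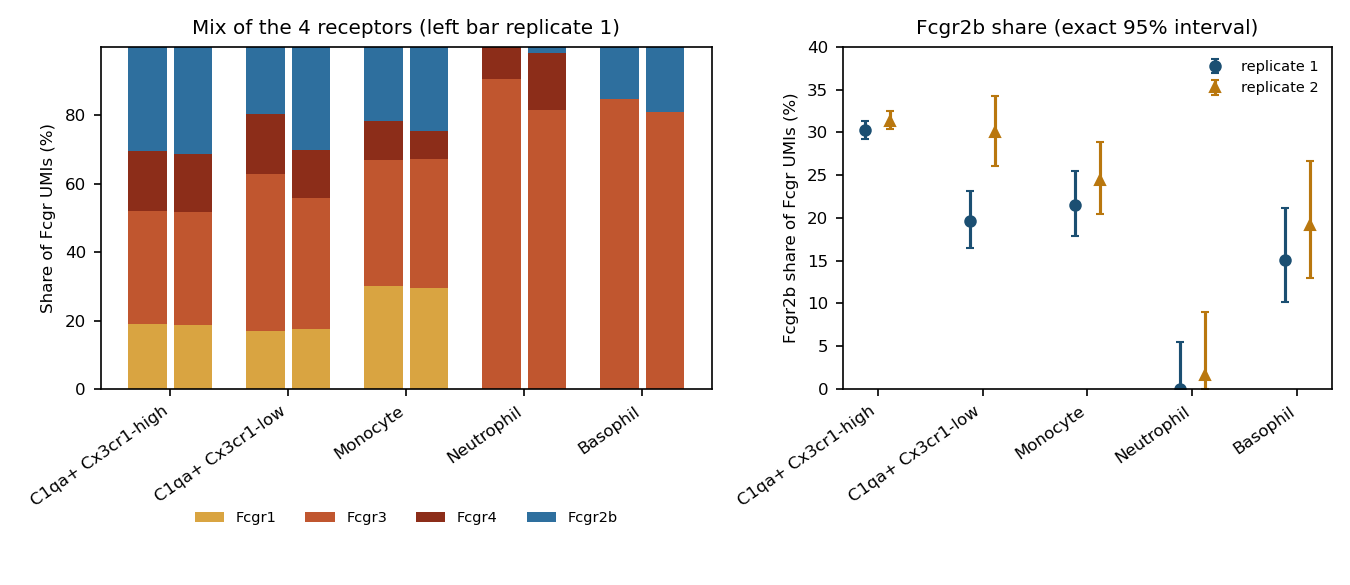
Left, percent of Fc gamma receptor UMIs from each of the 4 receptors, stacked to the whole, with replicate 1 as the left bar of each class. Right, the Fcgr2b percent by class and replicate with exact 95% intervals: Cx3cr1-high cells sit at 30.3% and 31.4%, monocytes and basophils lower, and neutrophils at 0% and 1.67%.

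The share was also taken cell by cell. Among Cx3cr1-high cells with at least 10 Fc gamma receptor UMIs (334 of 346), the median Fcgr2b share was 30.4%, with quartiles of 22.7% and 38.3%. Of these, 14 cells were above 50%. The median was 19.4% in the 44 Cx3cr1-low cells and 16.8% in the 32 monocytes with as many UMIs, and both classes differed between replicates (18.2% and 26.7%, and 11.8% and 20%). All 5 neutrophils with as many were at 0. At these counts each cell's share also varies by counting error.

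**Figure D3:**
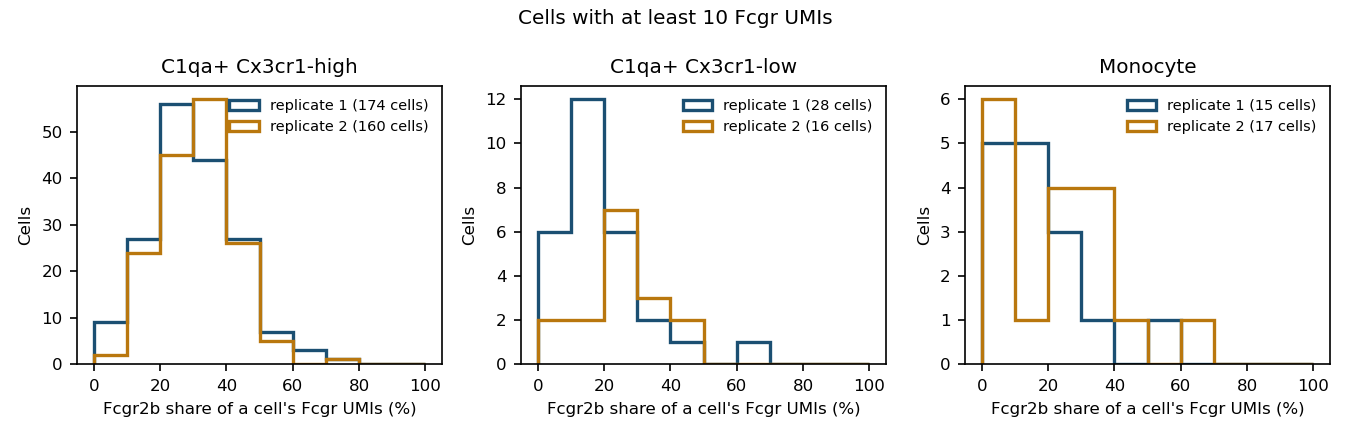
Number of cells (vertical axis) by the Fcgr2b share of a cell's Fc gamma receptor UMIs in percent (horizontal axis), for cells with at least 10 such UMIs; 1 line per replicate and 1 panel each for Cx3cr1-high cells, Cx3cr1-low cells and monocytes. The medians over both replicates are 30.4%, 19.4% and 16.8%.

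Cells differ in depth by class, so detection was compared after thinning each cell to 1000 UMIs. An Fcgr2b UMI was then found in 66.1% of Cx3cr1-high cells (98.8% unthinned), 46 of 92 Cx3cr1-low cells (81.1% of all 95 unthinned), 31.2% of monocytes (78.1% unthinned) and 13.1% of basophils (28.3% unthinned). Fcgr3 was found in 67.0%, 65.2%, 42.2% and 48.2% of the same classes, and in 56.7% of neutrophils. The 95% intervals of monocytes (29.9 to 55.2) and basophils (39.6 to 56.9) overlapped here, unlike their CPM ranges. Of 1804 thinned tumour cells 0 held either transcript, which limits only the share with a UMI at 1000 UMIs (up to 0.166%). At full depth, a median of 44092 UMIs, 0.936% of tumour cells held an Fcgr2b UMI and 2.04% an Fcgr3 UMI. Activating and inhibitory receptors were found together in 59.7% of thinned Cx3cr1-high cells, 46.7% of Cx3cr1-low cells and 23.4% of monocytes. Basophils held an activating receptor alone in 42.3% and both in 5.84%, and neutrophils an activating receptor alone in 63.3%.

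**Figure D4:**
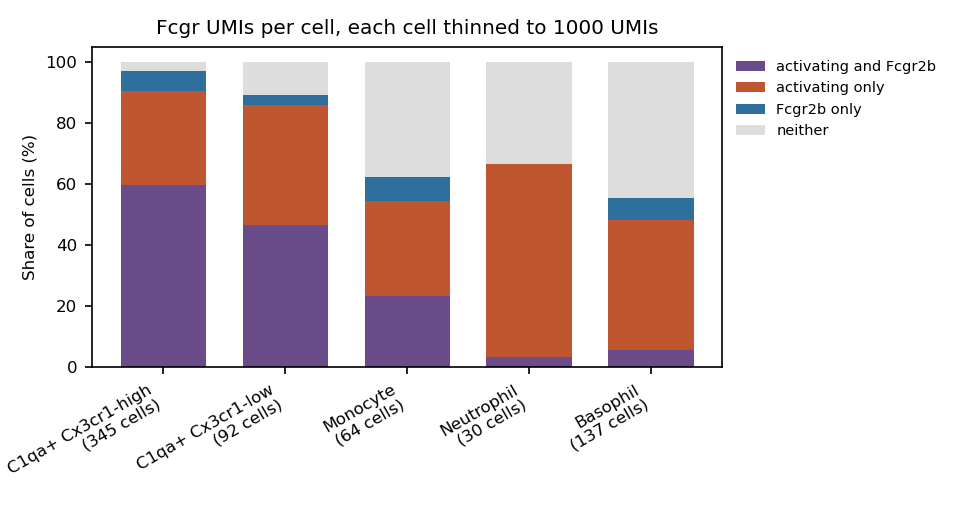
Percent of cells, thinned to 1000 UMIs, with activating Fc gamma receptor UMIs only, Fcgr2b only, both or neither, by class. Both were detected in 59.7% of Cx3cr1-high cells and in 5.84% of basophils.

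The ITAM adaptors ran through all myeloid classes. Fcer1g stood at 4794 and 4593 CPM in Cx3cr1-high cells, at 4907 and 4316 CPM in Cx3cr1-low cells, at 3554 and 4169 CPM in neutrophils, at 3677 and 3276 CPM in monocytes and at 2937 and 2249 CPM in basophils. The first pair of classes overlapped, and so did neutrophils and monocytes. Tyrobp had another order, with 5407 and 6824 CPM in neutrophils, 3476 and 3301 CPM in monocytes, 3305 and 3445 CPM in Cx3cr1-low cells, 3031 and 2996 CPM in Cx3cr1-high cells and 2731 and 2298 CPM in basophils. Neutrophils were above every other class in both libraries.

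The 2 adaptors differed in their share by class. Fcer1g took 60.9% ± 0.522 (SD, n = 2) of adaptor UMIs in Cx3cr1-high cells, 57.7% ± 2.93 in Cx3cr1-low cells, 50.6% ± 1.12 in monocytes, 50.6% ± 1.66 in basophils and 38.8% ± 1.23 in neutrophils. In dendritic cells it was 18.0% ± 4.10, with Tyrobp at 271 and 315 CPM and Fcer1g at 48.3 and 83.3 CPM. Tyrobp UMIs were found in 53 of 76 dendritic cells. Basophils held 7.97 and 8.11 Fcer1g UMIs per activating Fc gamma receptor UMI, against 1.90 and 1.74 in Cx3cr1-high cells and 1.80 and 2.66 in neutrophils. In basophils Fcer1g also serves the high-affinity IgE receptor, whose other chains were present there: Fcer1a at 302 ± 121 CPM and Ms4a2 at 252 ± 20.02 CPM, both also markers used to check the class.

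**Figure D5:**
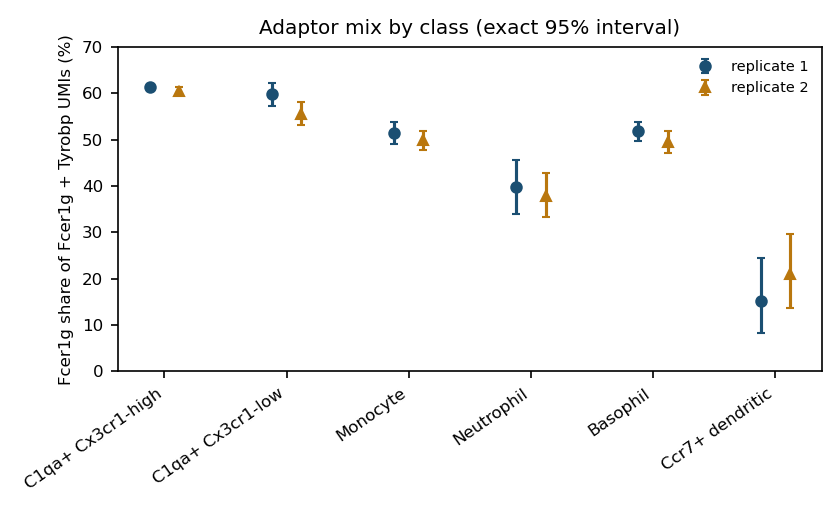
Percent of Fcer1g plus Tyrobp UMIs that were Fcer1g, by class and replicate, with exact 95% intervals. The mean was 60.9% in Cx3cr1-high cells, 38.8% in neutrophils and 18.0% in dendritic cells.

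Trem1, the Tyrobp-coupled receptor that amplifies inflammatory signals, was a neutrophil gene here, with 820 and 266 CPM. These values rest on 37 UMIs in 19 of 31 cells, and replicate 1 was the higher. Monocytes had 28.6 and 22.1 CPM, Cx3cr1-high cells 0 and 6 UMIs and Cx3cr1-low cells 0 and 1, while basophils, dendritic cells and T cells held 0. Clec4e (Mincle), a receptor for glycolipids and dead cells that couples to Fcer1g, had 456 and 797 CPM in neutrophils, 115 and 108 CPM in monocytes, 53.3 and 53.5 CPM in basophils, 5.22 and 15.1 CPM in Cx3cr1-low cells and 2.02 and 0 CPM in Cx3cr1-high cells. No myeloid ranges of Clec4e overlapped. Cd84, a self-binding SLAM-family receptor, was spread more evenly, at 304 and 372 CPM in neutrophils, 264 and 241 CPM in Cx3cr1-high cells, 193 and 217 CPM in Cx3cr1-low cells, 158 and 109 CPM in basophils and 90.0 and 60.8 CPM in monocytes. T cells had 69.6 and 53.0 CPM, overlapping monocytes.

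Differences between classes were then tested on the sums of each class in each library with edgeR's quasi-likelihood test, fitted on 6420 genes with Benjamini-Hochberg adjustment and the library as a block. A gene was called at an adjusted p under 0.05 and a log2 fold change of at least 1. Fold changes below are log2 ± SE, and every adjusted p is edgeR's.

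Between Cx3cr1-high and Cx3cr1-low C1qa-positive cells, 0 of 9 members were called (all genes: 3.96% called higher and 2.1% lower). Of the 9, 4 had an unadjusted edgeR p under 0.05, and DESeq2 called 1, Clec4e, lower. Over all genes 57.0% of DESeq2's calls were higher. The share of all genes at the unadjusted p is not given here, so that count has no background. Fcgr2b came closest, at 0.78 ± 0.24 (adjusted p = 0.0478), below the fold required; Fcgr1 was at 0.58 ± 0.24 (0.147) and Fcgr4 at 0.58 ± 0.25 (0.159). The median over members was 0.12 and over all genes 0.13. Without barcodes lacking Malat1, which left 10 and 6 Cx3cr1-low cells, Fcgr1, Fcgr2b, Fcgr4, Fcer1g and Tyrobp were called higher in Cx3cr1-high cells, at 1.07, 1.17, 1.46, 1.38 and 1.42. More genes were called over all genes in that setting too, with the count given below. In plain CPM, Fcgr2b was at 1114 and 1238 in these Cx3cr1-high cells against 510 and 1423 in the Cx3cr1-low cells, so replicate 2 went the other way. Fcgr1 was at 687 and 718 against 643 and 520 CPM. Barcodes without Malat1 and red-cell genes, with the values above, moved with this comparison, and their part was not tested.

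Monocytes had 2 members called higher and 4 lower than C1qa-positive cells (all genes: 9.98% higher and 9.77% lower). Clec4e was higher by 4.96 ± 0.54 (adjusted p = 2.08e-07) and Trem1 by 3.53 ± 1.12 (0.0239), on 15 against 7 UMIs. Fcgr2b fell by 1.46 ± 0.24 (3.58e-05), Fcgr3 by 1.20 ± 0.22 (0.000242), Fcgr4 by 1.93 ± 0.26 (6.56e-06) and Cd84 by 1.76 ± 0.27 (1.9e-05). The adaptors did not pass, with Fcer1g at -0.55 (0.182) and Tyrobp at -0.04 (0.95), nor did Fcgr1 at -0.47 (0.128). The median was -0.55 over members and -0.01 over all genes. Trem1 was not called by DESeq2 (adjusted p = 0.428), with doubled gates or with all cells passing a gate, and Fcgr3 was not called without Malat1-negative barcodes, at -0.81. Macrophage markers in monocytes were 5059 CPM in replicate 1, the library with the higher Fc gamma receptor values; their part was not tested.

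Neutrophils had 4 members called higher and 2 lower than monocytes (all genes: 5.62% higher and 12.2% lower). Trem1 was higher by 4.06 ± 0.78 (adjusted p = 0.000674), Clec4e by 2.19 ± 0.45 (0.00104), Cd84 by 1.90 ± 0.46 (0.00442) and Fcgr3 by 1.11 ± 0.29 (0.00918). Fcgr2b was at 1 against 207 UMIs, 24.1-fold lower in CPM (95% counting interval 4.28 to 956; adjusted p = 0.000294). Fcgr1 had 0 against 268 UMIs, at least 10.4-fold lower with a floor of 3 counts over the class (2.75e-05). At 0 in neutrophils, Fcgr1 entered the test only through other classes, so its direction was fixed in advance. Fcgr4 and Fcer1g did not pass, and Tyrobp was at 0.53 (0.174). In this comparison the median of all genes was -1.11, or 0.0892 with genes at 0 set to their bound, against 0.53 over members; DESeq2's size factors moved it to -0.86. Of the calls over all genes, 31.5% were higher, against 42.6% with DESeq2's size factors and 52.8% with DESeq2. Trem1 was not called by DESeq2 (0.427). Fcgr3 was at 0.97 with doubled gates (0.113). With all cells passing a gate, 202 genes were called in place of 1146 and all 6 member calls were lost.

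Basophils, dendritic cells, T cells and tumour cells were each compared with the mean of the 4 other myeloid classes (Cx3cr1-high, Cx3cr1-low, monocytes and neutrophils). These comparisons share that baseline. Folds for members at 0 to 3 UMIs are against the mean CPM of the 4 classes, with exact Poisson intervals on the low count or, at 0, the floor of 3 counts over the class. Fcgr1, at 0 in neutrophils, could not be estimated in this fit and is given by its counts. In basophils 0 members were called higher and 2 lower (all genes: 23.6% and 7.99%). At an unadjusted edgeR p under 0.05, 0 were higher and 6 lower, with no share of all genes given here. DESeq2 called 0 higher and 4 lower, while 65.2% of its calls over all genes were higher. The class held tumour markers at 441.1 and 401.2 CPM and mast-cell markers at 2673 and 849 CPM, whose part was not tested; without its 4 and 1 cells with Cma1 the Fcgr2b share was 14.7% and 18.8%. Fcgr3 fell by 1.67 ± 0.22 (adjusted p = 2.06e-06). Fcgr4 had 0 UMIs, at least 100.1-fold lower (1.95e-09), and Fcgr1 0 UMIs, at least 111-fold lower. With 0 UMIs in basophils, both genes entered the test only through other classes. Their direction was fixed in advance, also without neutrophils in the baseline, and their calls are descriptions. Fcgr2b was at -1.88 ± 0.78 (0.0627), Fcer1g at -0.61 (0.0825) and Tyrobp at -0.53 (0.0504). Without neutrophils in the baseline, Fcgr2b fell by 3.36 ± 0.28 (6.08e-10), Fcgr1 was called lower (7.01e-12) and Clec4e was called higher at 2.29 ± 0.50 (0.000642); with all cells passing a gate Clec4e was called lower, at -2.97 (3.94e-06). The median was -1.67 over members and 0.52 over all genes, or 0.24 with genes at 0 set to their bounds.

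In dendritic cells 7 members were called lower (all genes: 23% higher and 10.3% lower). Fcer1g fell by 6.10 ± 0.44 (adjusted p = 7.61e-11), Tyrobp by 3.83 ± 0.28 (8.69e-11) and Cd84 by 3.12 ± 0.37 (2.23e-07). Fcgr3 was at 2 UMIs, 306-fold lower (84.7 to 2527), and Fcgr2b at 1, 298-fold lower (53.4 to 11757). Fcgr4 and Clec4e were at 0, at least 66.3-fold and 34.5-fold lower. B-cell markers summed to 197 and 257 CPM in this class and T-cell markers to 305 and 18.1 CPM, and their part was not tested. In T cells 7 were called lower (all genes: 15.3% higher and 9.17% lower), among them Fcer1g by 5.02 ± 0.43 (1.87e-09) and Tyrobp by 7.73 ± 0.45 (2.02e-12). Cd84 fell by 1.74 ± 0.35 (0.000485), the smallest fitted change of the 7. Fcgr3, Fcgr4 and Clec4e were at 0, at least 119-fold, 38.6-fold and 20.1-fold lower, and Fcgr2b at 1 UMI, 174-fold lower (31.1 to 6854). Clec4e was lost without neutrophils in the baseline (0.116). In tumour cells 8 were called lower (all genes: 31.8% higher and 18.8% lower), with Fcer1g at -10.89 ± 0.48 (1.25e-15) and Tyrobp at -11.68 ± 0.39 (5.68e-18); Fcgr1, against the 3 other classes without neutrophils, was at -11.45 ± 0.35 (4.06e-18). No member was called higher in these 3 comparisons by edgeR or DESeq2, and 0 had an unadjusted edgeR p under 0.05 in that direction. DESeq2 called 8, 8 and 9 lower, while 66.5%, 59.0% and 62.0% of its calls over all genes were higher. Shares of all genes at the unadjusted p are not given here. The members are myeloid genes set against myeloid classes. Those near 0 in these 3 classes entered the test only through that baseline. Their direction was fixed in advance, and these counts of calls are descriptions. The medians over members were -7.20, -7.73 and -10.60, against 0.60, 0.40 and 0.48 over all genes.

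The few counts in these classes were concentrated. All 41 Fcer1g UMIs of T cells lay in 6 of 52 cells, with 97.6% in 5. Of these 6, 3 held an NK-cell marker, as did 15 of the other 46. The 4 NK-cell markers summed to 1400 and 1542 CPM over the T-cell class, of which Gzma made 1214 and 1442 CPM. Ncr1 and Klrb1c had 2 UMIs each, all in replicate 1 and all in the cells with Fcer1g. Of 198 Fcer1g UMIs in tumour cells, 47.0% lay in 5 cells, and 17 of 33 Fcgr2b UMIs in 1 cell. What these cells are was not tested.

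Around the receptors, 80 further genes in 7 lists were described: ITAM signalling, inhibitory phosphatases and other brakes, other adaptors, receptors that pair with Tyrobp or Fcer1g, ITIM receptors, the SLAM family, and ligands and antibody genes. Their members were chosen with earlier results known, and the counts are descriptions.

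In Cx3cr1-high against Cx3cr1-low cells (all genes: 3.96% higher and 2.1% lower), 2 of 10 brakes were higher: Inpp5d by 1.33 ± 0.25 (edgeR adjusted p = 0.00121), the phosphatase that Fcgr2b recruits, at 205 ± 0.195 against 82.4 ± 31.1 CPM, and Pag1, which binds the inhibitory kinase Csk, by 1.43 ± 0.38 (0.0183). Of 11 pairing receptors, Siglech was higher by 1.49 and Clec4n and Clec4d (partners of Fcer1g) lower, at -4.05 and -3.33. The median of the brakes was 0.29.

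In monocytes against C1qa-positive cells (all genes: 9.98% higher and 9.77% lower), ITAM signalling had 5 higher and 2 lower of 16. Fgr, a Src-family kinase, was higher by 3.21 ± 0.36 (edgeR adjusted p = 4.17e-07), Malt1 by 2.47, and Syk by 1.20 ± 0.26 (0.00122), while the adaptor Blnk fell by 4.64. Pairing receptors had 6 higher and 2 lower of 11, with Pira2 at 5.35, Cd300lb at 3.51 and Trem2, the lipid receptor of microglia and macrophages, at -4.41 ± 0.29. ITIM receptors had 3 higher and 2 lower of 12, with Clec12a at 2.95, Cd300a at 2.05 and Cd72 at -6.55.

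In neutrophils against monocytes (all genes: 5.62% higher and 12.2% lower), ITIM receptors had 4 higher of 12: Cd300lf by 3.72 ± 0.29 (edgeR adjusted p = 1.88e-09), at 1511 ± 184 against 93.9 ± 23.3 CPM, Siglece by 2.98, Lilrb4a by 2.70 and Pilra by 1.66. Neutrophils had almost no Fcgr2b and the highest Cd300lf and Fcgr3 of the pair. ITAM signalling had 2 higher and 2 lower of 16, and pairing receptors 2 and 2 of 11. Syk was higher by 1.74 ± 0.35, at 495 ± 13.1 against 121 ± 14.3 CPM, and Clec4d, a lectin receptor that pairs with Clec4e, by 2.72 ± 0.41, at 679 ± 15.6 against 83.0 ± 4.04 CPM. Pglyrp1, a bactericidal protein and Trem1 ligand, was higher by 4.28.

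In basophils (all genes: 23.6% higher and 7.99% lower), ITAM signalling had 2 higher and 7 lower of 16. Lat2, the linker used by IgE receptors, was called higher, at 741 ± 151 CPM. Over both libraries it stood at 260 CPM in Cx3cr1-high cells, 282 CPM in Cx3cr1-low cells and 144 CPM in monocytes. Neutrophils held 0 Lat2 UMIs, so its fitted value of 5.08 ± 0.40 is not a measured fold. Fyn was higher by 3.80, while Card9 fell by 3.53. Fgr had 0 UMIs, at least 53.1-fold lower than the mean of the classes. ITIM receptors had 2 higher and 8 lower of 12, with Lilrb4a at 1.73 ± 0.21 and Sirpa at -4.66. Of 10 brakes 1 was called higher, Ptpn11, and 4 were lower: Lyn, Ptpn6, Cbl and Inpp5d, the last by 1.30. Ptpn11 also had 0 UMIs in neutrophils, so its fitted value of 3.11 is not a measured fold. In T cells (all genes: 15.3% higher and 9.17% lower) 4 of 7 other adaptors were higher, namely Cd3g, Cd3d, Cd247 and Hcst, and 9 of 12 ITIM receptors were lower. The class was gated on Cd3e, and Cd3g and Cd3d were markers used to check it, so their direction was fixed in advance. In tumour cells (31.8% and 18.8%) 1 of 16 ITAM signalling genes was higher, Fyn, and 10 were lower, as were 10 of 12 ITIM receptors. Genes near 0 in T cells or tumour cells entered the test only through other classes, so these counts of lower genes are descriptions.

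The genes whose pattern over the 16 class sums was most like each member were ranked by Pearson r among 6363 genes of at least 50 CPM in a sum. The sums share 2 libraries and differ in depth, so r is a description. For Fcgr1 they included Cybb (0.971) and Slamf8 (0.959), and for Fcgr2b they were Adgre1 (0.943), Cmklr1 (0.939) and C3ar1 (0.937). Fcgr3 was closest to Hk3 (0.979), Itgam (0.976) and Arl11 (0.970), and Fcgr4 to Tlr2 (0.987), Cd68 (0.986) and Slc11a1 (0.982). Fcer1g was nearest to Rnf130 (0.944), Man2b1 (0.944) and AB124611 (0.942), and those near Tyrobp included Spi1 (0.950), which encodes PU.1, and Lyn (0.944). Trem1 was nearest to Slfn4 (0.965), Scnn1a (0.962) and Trem3 (0.961), Clec4e to Cd300lb (0.985), F630028O10Rik (0.979) and Taldo1 (0.958), and Cd84 to Fgl2 (0.963), Arhgap25 (0.960) and Bin2 (0.954). Between the adaptors r was 0.924.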

How the data were processed

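The authors deposited raw UMI counts per gene and barcode for each library, made with Cell Ranger 3.1 on mm10 per the submitters' processing notes and with STAR per the labels' protocols. The end of the transcript that was sequenced is not given in the sources used here. The labels also name a depth normalization of combined runs, but the totals of the deposited counts differ, so no scaling was assumed. The members and all lists were chosen with earlier results of these data known. Gates, in UMIs per cell: tumour Nras at least 1000 CPM; C1qa at least 5, split at Cx3cr1 of 2; monocyte Ly6c2 at least 1 and Lyz2 at least 5; neutrophil S100a8 plus S100a9 at least 10; basophil Mcpt8, dendritic cell Ccr7 and T cell Cd3e at least 1. Genes used as gates are not results. Cells that passed several gates (237) or no gate (331) were left out. The 16 class sums were fitted in edgeR 4.0.16 (R 4.3.3, TMM factors, filterByExpr, library as block, 7 residual degrees of freedom), with DESeq2 1.42.0 as an alternative. The fit was first tested on simulated sums, for basophils against the 4 myeloid classes. It called 10 of 29 tested 2-fold increases, 46 of 46 tested 4-fold increases and 13 of 26 tested 4-fold decreases. Of 5754 unchanged genes, 6 were called. A member that was not called may therefore still differ. Each simulated class was mixed with the profile over all classes, and the spread between libraries was assumed. Genes absent from a baseline class were thus not simulated. In the data 2271 of 6420 tested genes were at 0 in a class of this comparison, and the simulated rates do not cover them. The block rests on the labels: the classes of 1 number come from 1 library. Sums and shares used Python 3.11.15 with scanpy 1.11.5, numpy 2.4.6, scipy 1.17.1 and pandas 2.3.3. Doublets were not removed in the values reported; scrublet, at an expected rate of 0.04, called 11 and 3, of which 1 per library had 1 gate. The libraries shared 10 barcode sequences. Members were named in every class, and from each list up to 4 called genes of largest fold change, with Inpp5d and Lilrb4a in basophils named after their values were seen; a few genes that this rule names are not reported here. Splits of a class by Malat1, Cma1 or Fcer1a and the baseline without neutrophils were added after the data were seen. Within the last 500 bases no member shared a 50-base word with another gene. Over the whole transcript Fcgr3 shared 12.8% of its words, all with Fcgr2b. Fcgr2b shared 11.4% of its words, with Fcgr3 and with many other genes. Reads there may be uncounted.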

Additional observations from a re-analysis of the deposited data

Results flagged for a closer look

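The 9 genes were also present in the 331 cells that passed no gate, outside the comparisons. Given over both libraries, with 0.453 CPM as the limit that a count of 0 allows, Fcer1g stood at 204 CPM and Tyrobp at 194 CPM, Fcgr3 at 36.7 CPM, Fcgr2b at 33.6 CPM, Fcgr1 at 13.5 CPM, Fcgr4 at 13.1 CPM, Cd84 at 9.97 CPM, Clec4e at 2.72 CPM and Trem1 at 1.51 CPM. Both libraries were above that limit for each gene. In the 237 cells that passed several gates, Fcer1g stood at 358 and 403 CPM and Fcgr2b at 62.3 and 88.4 CPM. What these cells are was not tested.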

How the results depend on the processing

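The library block changed little: without the replicate block 63 of 63 member results were on the same side, and the genes called numbered 389, 1286, 1158, 2052, 2141, 1574 and 3259 for the 7 comparisons in the order of the report. Genes called moved beyond 1.5 times in these cases: Cx3cr1-high against low 663 without Malat1-negative barcodes and 140 with doubled gates (389 reported); with all cells passing a gate, monocytes 692 (1268), neutrophils 202 (1146) and basophils 4211 (2026); tumour cells 5771 without a low-count filter (3249). With all cells passing a gate the Fcgr2b share was 26.8% in monocytes, 23.4% in basophils and 19.3% in neutrophils, and with doubled gates 2.89% in neutrophils. Leaving out 1 library gave Fcgr2b shares from 30.3% to 31.4% in Cx3cr1-high cells, 19.7% to 30.1% in Cx3cr1-low cells, 21.5% to 24.5% in monocytes, 15.1% to 19.1% in basophils and 0% to 1.67% in neutrophils; the fits had no residual degrees of freedom and gave ratios only. Thinning to 2000 UMIs gave Fcgr2b in 83.6% of Cx3cr1-high cells and 20.5% of basophils, and Fcgr3 in 91.8% of Cx3cr1-high cells, 61.9% of monocytes and 58.3% of basophils. Changes of sign were not called unless stated: in Cx3cr1-high against low, Fcer1g -0.00352 without a filter and -0.13 with doubled gates, Tyrobp 0.0931 with all cells and 1.42 (called) without Malat1-negative barcodes, and Trem1 6.64 there; in monocytes, Fcer1g 0.180 without Malat1-negative barcodes, and Tyrobp 0.0185 without a filter, 0.0125 with all cells and 0.808 without Malat1-negative barcodes; in neutrophils, Fcer1g 0.0980 with DESeq2's size factors and 0.0978 with DESeq2, and Tyrobp -0.0790 with all cells; in basophils, Clec4e -2.97 (called) with all cells. Without replicate 2 the log2 CPM ratios of Fcgr3 (-0.183; 0.377 without replicate 1) and Fcer1g (-0.0339; 0.0899) in Cx3cr1-high against low, and of Fcgr4 (-0.303; 1.46) and Fcer1g (-0.0489; 0.348) in neutrophils, changed sign. The cause of these changes was not tested. Of 63 member results, 54 kept their side with DESeq2, 62 with its size factors, 58 without a filter, 53 without Malat1-negative barcodes, 50 with doubled gates, 38 with all cells passing a gate and 63 without scrublet doublets.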

Other observations

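Antibody transcripts in the tumour class of replicate 1 came almost all from 1 barcode, which held 3393 of 3402 Igkc UMIs, 600 of 601 Ighg2c UMIs and 178 of 179 Jchain UMIs, and 0 UMIs of the 9 genes.

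Basophils, split after their values were seen, differed in the adaptors. The 34 and 30 basophils with an Fcer1a UMI had Fcer1g at 3721 and 4049 CPM and Tyrobp at 3999 and 4689 CPM. The 40 and 34 without one had Fcer1g at 2451 and 1518 CPM and Tyrobp at 1944 and 1326 CPM. Cells without Fcer1a held more UMIs per cell, 6365 and 8603 against 4648 and 3960, and the part of depth was not tested.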
